A study of Mus musculus with 34 samples.

Results

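The 7 genes described here encode core proteins of the RAS, RAF, MEK and ERK signalling chain: Nras and Hras (RAS), Araf and Braf (RAF), Map2k1 and Map2k2 (MEK) and Mapk3 (ERK). They were chosen by name, as the rows of the count table whose Ensembl identifier belongs to one of these symbols, and make up 7 of its 14107 genes. All 7 were found, each as a single row. Counts are given per gene, so for Braf they add the engineered and the other allele together.

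The samples were RNA from 3 mouse colorectal cancer cell lines of C57BL/6N background, NaJa-D, NaJa-F and NaJa-G. All groups, controls included, carry the same genotype: VillinCreERT2, which drives an inducible Cre in intestinal epithelium, a heterozygous BrafV600E/+ allele whose kinase is constantly active, Trp53R172H and a deletion of Apc (APCdel). Per the study's methods, each line grew out of the peritoneal lavage of 1 of 3 recipient mice transplanted with organoids of a single donor, so line and recipient cannot be told apart. Cells were given 0.5 µM encorafenib, which blocks mutant BRAF, or its solvent DMSO for 1 or 5 days, and for the later time medium with drug or solvent was renewed on days 2 and 4. This makes 12 groups of line, treatment and day.

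The 34 libraries held 46007050 to 80121299 counts, with 3 libraries in 10 groups and 2 in the groups NaJa-G DMSO day 5 and NaJa-F encorafenib day 5. No source says that libraries of a group came from separate cultures, so p-values measure the spread between these libraries, which may be technical. Their spread exceeded counting noise in all 32 pairs, by 3.3 to 85 times in variance, so no 2 libraries of a group were treated as 1. All libraries correlated at 0.988 or more within their group and at 0.96 or less with any library of another line. Epithelial markers were found for 8 of 8 genes in all lines, with summed levels of 5610 to 9560 CPM (counts scaled to a common library size) in NaJa-D, 4630 to 7670 in NaJa-F and 2610 to 5270 in NaJa-G, although Vil1, which defines intestinal epithelium, lay at 0.623 to 1.72 CPM in NaJa-F and 0.285 to 1.1 in NaJa-G. All 6 mesenchymal markers were also present. Their sums overlapped, at 8750 to 15100 CPM in NaJa-D, 7600 to 10800 in NaJa-F and 6750 to 15500 in NaJa-G. Single genes of this list did differ. In DMSO, NaJa-G exceeded NaJa-D for Vim, Zeb1, Cdh2, Sparc and Twist1 but had less Fn1 (median log2 difference of the 6 genes 2.95). In the same comparison NaJa-G had less of 7 of the 8 epithelial markers. By the paper's account, NaJa-D cells look epithelial, NaJa-G cells mesenchymal and NaJa-F cells intermediate. The table held 3 of 5 mesothelial markers, at 497 to 3520 CPM, and all 4 fibroblast markers, which summed to at most 7.54 CPM in NaJa-D and NaJa-F and to 13.9 to 119 CPM in NaJa-G. Of 6 blood and 4 endothelial markers the table held 1 each, at 4.3 CPM or less and 1.36 CPM or less. Some of these markers also moved with drug and time. Msln and Upk3b (mesothelial), Col1a1 and Dcn (fibroblast) and Csf1r (blood) were higher with encorafenib in all 6 comparisons. The other measured genes of the mesothelial and fibroblast lists were not. Lrrn4 was higher only in NaJa-F day 5 and NaJa-G day 5, Col1a2 only in NaJa-G on both days, and Pdgfrb only in NaJa-G day 5. In NaJa-G day 5 the mesothelial sum was 497 to 565 CPM in DMSO and 1530 to 1740 with drug, and the fibroblast sum 13.9 to 16.6 and 105 to 119. Over time in NaJa-G DMSO, Col1a1, Col1a2 and Pdgfrb fell, and the fibroblast sum was 51.2 to 70.5 CPM at day 1. The part of the marker differences between lines, treatments and days in the results below was not tested. Replicate 3 of NaJa-D DMSO day 1 names NaJa-G in its cell line field, against its title, and was kept under the title. Its lowest correlation with its NaJa-D group was 0.995, and its highest with a library of another line 0.955.

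Some libraries stood apart within their group. NaJa-D encorafenib day 1 replicate 3 had the widest deviations from its group over 10256 genes (SD 0.23 on the log2 scale, against 0.05 to 0.17 in the others). In the groups of 2, the libraries differed along the GC content of the genes: the correlation of a library's deviations with GC content was -0.56 and 0.56 in NaJa-G DMSO day 5 replicates 1 and 3, and -0.66 and 0.66 in NaJa-F encorafenib day 5. The 7 genes span that scale, from 42.6% GC in the longest transcript of Braf and Nras to 60.4% in that of Map2k2. Values without these libraries are given beside the results whose call or size they move.

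In this pathway a RAS protein, switched on by growth factor receptors, recruits a RAF kinase to the membrane, RAF phosphorylates MEK, and MEK phosphorylates ERK, which then acts on many proteins and on transcription. Each step is held by several related genes that can partly stand in for each other. The mutant BRAF kinase signals without RAS, and drugs of the encorafenib type block it as a single molecule but not RAF proteins that have paired. Signalling through the chain is set mainly by phosphorylation, which RNA counts do not measure. In bulk RNA, fewer cells of a kind and less RNA per cell cannot be told apart.

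All 7 genes were well counted in every library, with 1552 to 21071 counts. Levels below are CPM scaled by the trimmed mean of M-values (TMM). Their mean log2 CPM lay above that of 65.5% of all genes for Braf and of 92.9% for Mapk3, the lowest and the highest of the 7. The SD of log2 CPM over the 34 libraries ran from 0.17 in Map2k1 to 0.36 in Nras, against a median of 0.39 over all genes, not matched for level. Of all genes, 6.06% had a smaller SD than Map2k1 and 44.1% a smaller SD than Nras. Per kilobase of summed exons, the level was highest for Mapk3 in all libraries (58.4 to 129 CPM per kb) and lowest for Braf (2.41 to 4.85 CPM per kb), whose summed exons reach 13862 bases. The order of the MEK genes depended on the length used. Map2k1 had a median level of 31.3 CPM per kb and Map2k2 of 27.3 per kb of summed exons, but 43.6 and 64.3 per kb of the longest transcript.

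**Figure D1:**
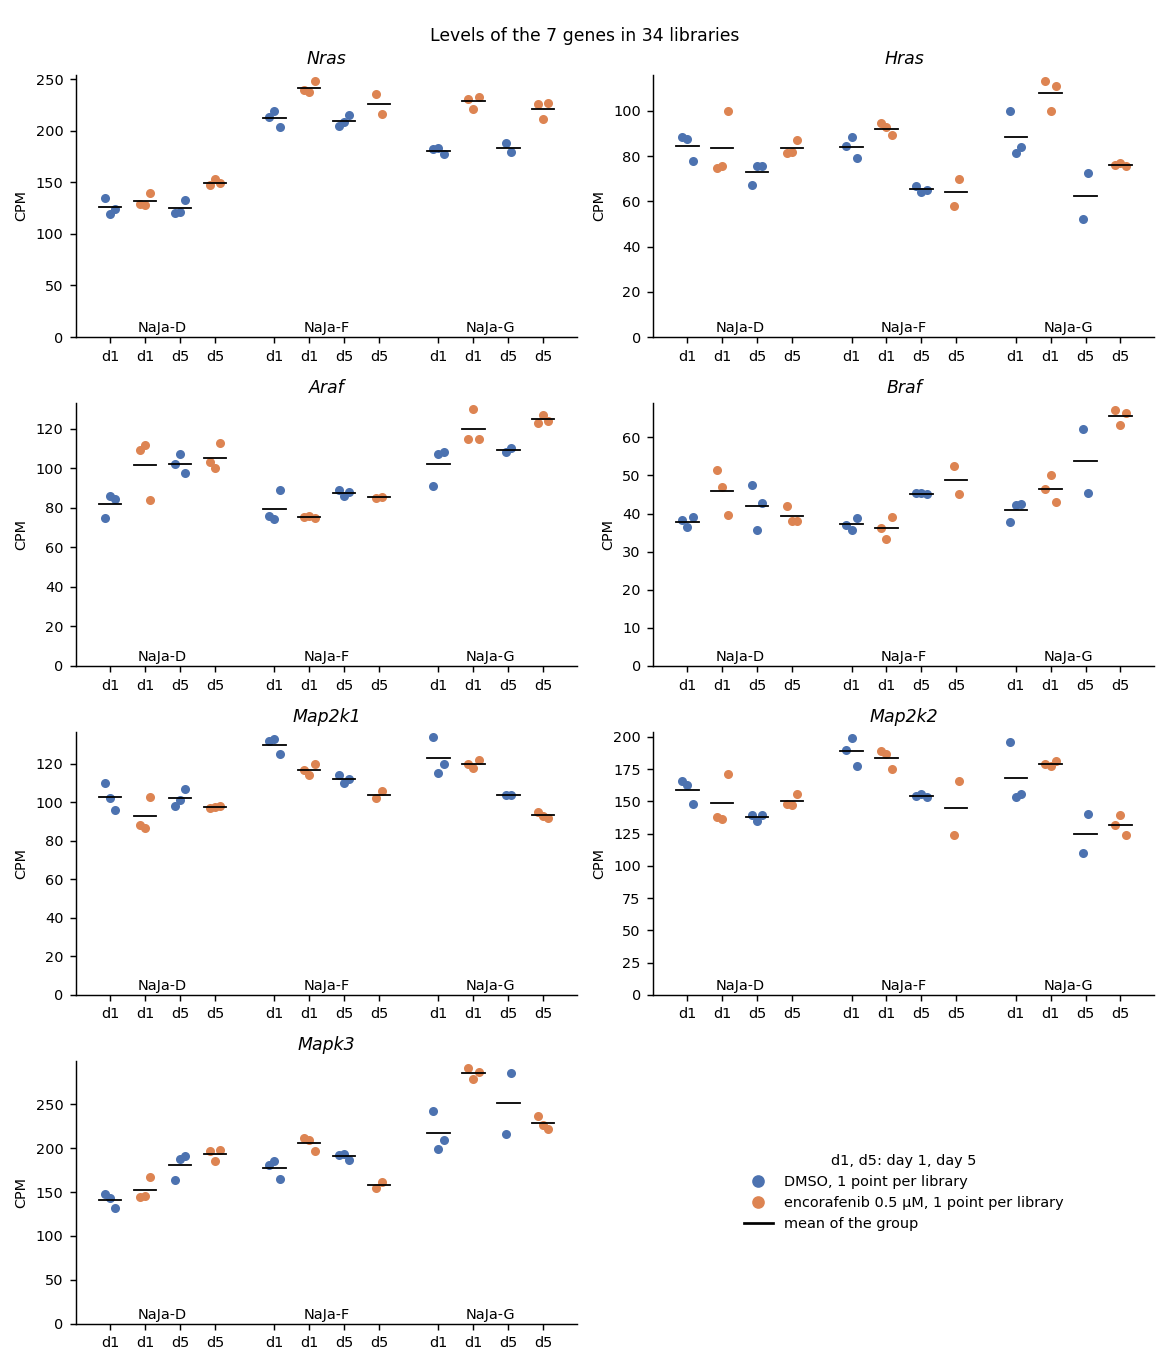
Levels of the 7 genes in CPM (TMM-scaled, axis from 0), 1 point per library and a bar at each group mean, by line, treatment and day. Nras was higher in all NaJa-F and NaJa-G libraries (177 to 248 CPM) than in any NaJa-D library (119 to 153 CPM).

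The first question was whether blocking mutant BRAF changed the RNA of the chain itself. Few tests of these genes passed with encorafenib, and the fitted changes of the 7 genes were small. An adjusted p below 0.01 in the limma fit over all genes was reached in 6 of 42 tests (7 genes, 6 comparisons), where 40.5% of all gene tests passed. All 6 were higher with drug: Nras in 4 comparisons, Mapk3 and Araf in 1 each. Msln, Upk3b, Col1a1 and Dcn, from the mesothelial and fibroblast lists, were higher with drug in each of the comparisons. Lrrn4, Col1a2 and Pdgfrb of the same lists were not. The part of these markers was not tested. The count was 1 of 7 in NaJa-D day 1 (44.9% of all genes passed), 1 in NaJa-D day 5 (33%), 1 in NaJa-F day 1 (29.5%), 0 in NaJa-F day 5 (18.2%), 2 in NaJa-G day 1 (64%) and 1 in NaJa-G day 5 (53.2%). In NaJa-F day 5, 1 of the 7 had an unadjusted p under 0.05 (Mapk3, 0.00435), and edgeR, DESeq2 and limma-trend also called 0. None of the 7 passed in all 6 comparisons, where 8.15% of all genes passed in all 6 in 1 direction. The libraries of drug and DMSO did not overlap for 1, 4, 4, 4, 4 and 5 of the 7 genes in the same order of comparisons, where 54.9%, 54.5%, 59.1%, 55.3%, 73.5% and 73.1% of all genes did not. In simulated data for NaJa-D day 1, with 50 changed genes per size, a log2 change of 0.3 was called in 24% and one of 0.5 in 64%. Far fewer genes changed there than the 44.9% that passed in the data, which makes the adjusted threshold stricter. The changed genes were also drawn from genes of all levels. These shares therefore do not give the chance of missing a change in the 7 genes. The median size of the log2 fold change was 0.10 to 0.23 for the 7 genes, against 0.17 to 0.47 for all genes, not matched for level. The count rose to 12 without NaJa-D encorafenib day 1 replicate 3, to 10 without NaJa-G DMSO day 5 replicate 1, and to 14 of 42 when each library's trend with GC content was removed before the fit, an alternative added after seeing the data.

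**Figure D2:**
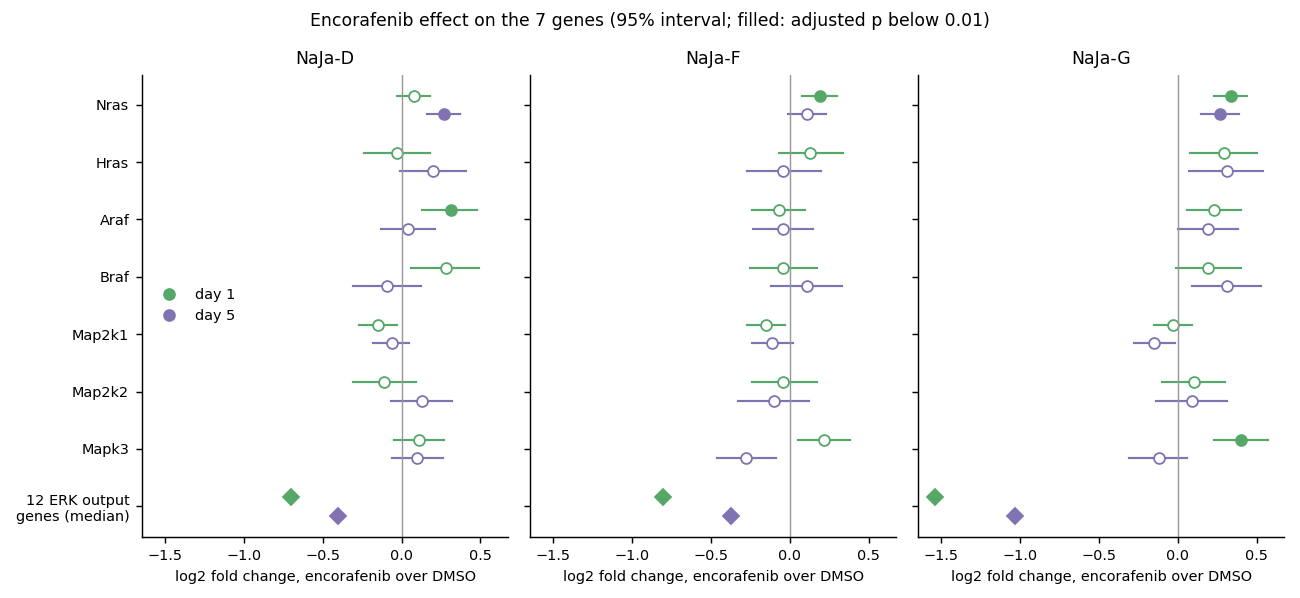
Log2 fold change, encorafenib over DMSO, of each gene with its 95% interval in the 3 lines at day 1 and day 5; filled points passed an adjusted p of 0.01, and diamonds give the median of 12 ERK output genes. Intervals of the 7 genes lie within -0.46 and 0.57, while the ERK output medians lie between -0.37 and -1.54.

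The same genes were compared between the lines and over culture time without drug. Nras and Mapk3 differed between all 3 lines, and Map2k1 and Hras fell over time in NaJa-F and NaJa-G. Between the lines in DMSO, 11 of 21 tests passed (61.1% of all gene tests): 3 of 7 in NaJa-F against NaJa-D (61.6% of all genes), 4 in NaJa-G against NaJa-D (67.4%) and 4 in NaJa-G against NaJa-F (54.4%). From day 1 to day 5 in DMSO, 8 of 21 passed (26.6% of all gene tests): 4 of 7 in NaJa-G (34.1%), 2 in NaJa-D (29%) and 2 in NaJa-F (16.7%). Without NaJa-G DMSO day 1 replicate 1 or NaJa-G DMSO day 5 replicate 1, 5 of 21 passed. These comparisons share their DMSO libraries with each other and with those of the drug.

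**Figure D3:**
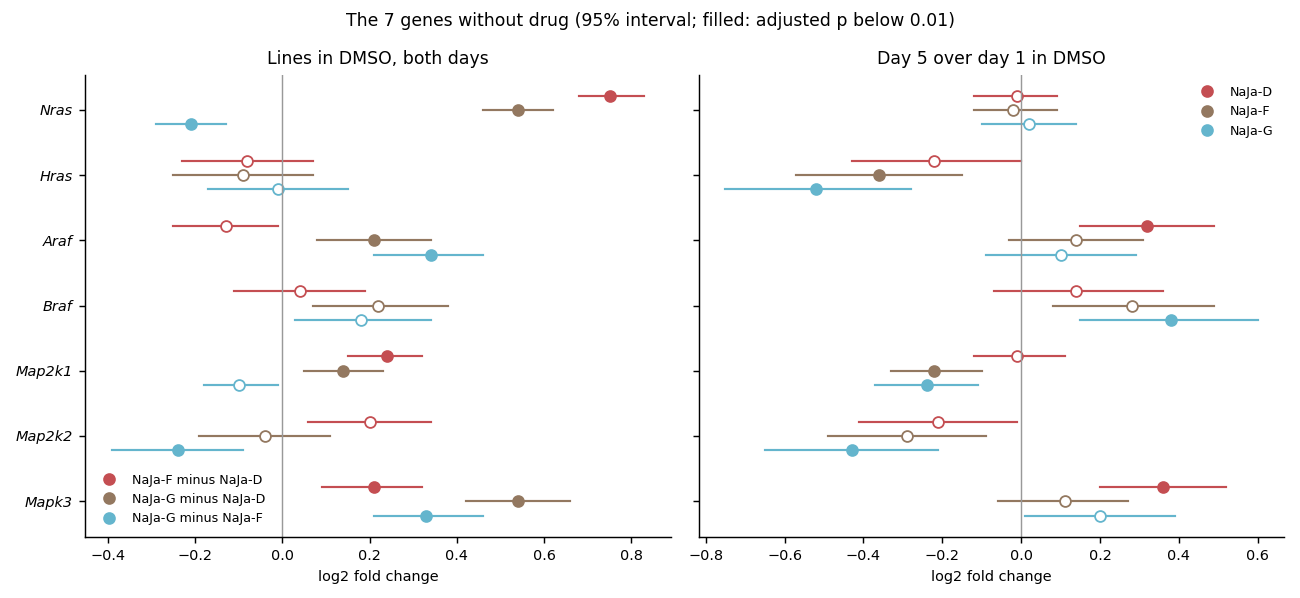
Log2 fold change of each gene with its 95% interval between the lines in DMSO (left, mean of both days) and between day 5 and day 1 in DMSO (right); filled points passed an adjusted p of 0.01. Nras differed between all 3 lines and did not pass over time, whereas Hras did not pass between lines and fell over time in NaJa-F and NaJa-G.

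Nras (ENSMUSG00000027852, chromosome 3, 103058285 to 103067914, GRCm38, plus strand) encodes a membrane-bound RAS switch. Of the 7 genes it had the largest share of its variance between the lines. In DMSO at day 1, its level was 135, 119 and 124 CPM in NaJa-D, against 213, 219 and 204 CPM for NaJa-F and 182, 183 and 177 CPM for NaJa-G. The day 5 libraries had 120, 121 and 133 CPM, then 205, 208 and 215, and 188 and 179 in the same order of lines. The ranges of the 3 lines did not overlap on either day. Over both days NaJa-F exceeded NaJa-D 1.68-fold (log2 0.75, 95% interval 0.68 to 0.83, adjusted p = 7.55e-17), NaJa-G exceeded NaJa-D 1.46-fold (0.54, adjusted p = 2.8e-13), and NaJa-G was below NaJa-F (-0.21, adjusted p = 2.93e-05). The differences from NaJa-D were as large at day 1 (0.75 and 0.53) as at day 5 (0.75 and 0.56), and held without each library in turn. Line membership took up 87% of the variance of log2 CPM of Nras, and the 12 groups 98.2%.

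Nras was also the gene of the 7 that responded to encorafenib in most comparisons. With drug its level was 129, 128 and 140 CPM in NaJa-D day 1 (day 5: 147, 153 and 149), 239, 238 and 248 CPM in NaJa-F day 1 (day 5: 236 and 216), and 231, 221 and 233 CPM in NaJa-G day 1 (day 5: 226, 211 and 227). These ranges lay above those of DMSO in 5 of 6 comparisons, and overlapped in NaJa-D day 1. In those 5 comparisons, 54.5% to 73.5% of all genes did not overlap. Nras rose 1.26-fold in NaJa-G day 1 (log2 0.34, 0.23 to 0.44, adjusted p = 1.6e-06), 1.21-fold in NaJa-G day 5 (0.27, adjusted p = 0.00022), 1.2-fold in NaJa-D day 5 (0.27, adjusted p = 9.29e-05) and 1.14-fold in NaJa-F day 1 (0.19, adjusted p = 0.00474). The first 3 held without each library in turn, and the last was lost in 5 of 6 such fits. In the other comparisons the log2 fold change was 0.08 (adjusted p = 0.195) in NaJa-D day 1, and less than 0.01 without drug replicate 3. In NaJa-F day 5 it was 0.11 (adjusted p = 0.19), and 0.03 and 0.15 without drug replicates 1 and 2. Over time in DMSO it was 0.02 in NaJa-G, -0.02 in NaJa-F and -0.01 in NaJa-D, each interval within -0.12 and 0.14.

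The day 1 response of Nras differed between lines. NaJa-G exceeded NaJa-D by 0.26 (0.11 to 0.41, adjusted p = 0.00437), which was 1 of 42 such tests passed by the 7 genes where 22.3% of all gene tests did (36.4% of genes in this comparison). In the other line differences, 0 of 7 passed, where 8.79% (NaJa-F minus NaJa-D) and 33.5% (NaJa-G minus NaJa-F) of genes did at day 1, and 8.85%, 21.9% (NaJa-G minus NaJa-D) and 24.2% at day 5. The difference held without NaJa-D encorafenib day 1 replicate 3 but was lost in 5 of 12 fits without 1 library, and was 0.13 with library size only, a scaling that moved all genes by a median of -0.13 in this comparison. The count over the 42 tests was 6 without that replicate 3, 4 and 3 without NaJa-G DMSO day 5 replicates 1 and 3, 2 without NaJa-G DMSO day 1 replicate 1 or NaJa-D DMSO day 5 replicate 2, and 0 in the 5 fits that lost the call. A processed pseudogene, Nras-ps2, exists in the annotation and is no row of the table, and how reads that match both were counted is not given in the sources used here.

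Hras (ENSMUSG00000025499, chromosome 7, 141189105 to 141194005, GRCm38, minus strand) encodes another RAS switch. None of its differences between lines passed (-0.08, -0.09 and -0.01), and it fell over culture time in NaJa-F and NaJa-G. In DMSO at day 1 it had 88.6, 87.4 and 77.9 CPM in NaJa-D, against 84.4, 88.6 and 79 CPM for NaJa-F and 100, 81.2 and 83.8 CPM for NaJa-G. The day 5 libraries had 67.3, 75.7 and 75.8 CPM, then 66.7, 64.3 and 65.2, and 52.2 and 72.4. Every day 5 library lay below all day 1 libraries of its line, where 51% (NaJa-D), 51.3% (NaJa-F) and 55.5% (NaJa-G) of all genes did not overlap. The fall was 0.52 on the log2 scale in NaJa-G (log2 -0.52, -0.75 to -0.28, adjusted p = 0.000529) and log2 -0.36 in NaJa-F (adjusted p = 0.00921), with -0.22 (adjusted p = 0.0942) in NaJa-D. In NaJa-F the call was lost without any 1 of the 6 libraries, under both other scalings and with the GC trend removed (adjusted p = 0.0105). In NaJa-G it was lost without DMSO day 5 replicate 1 (-0.28, adjusted p = 0.0848).

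Hras passed in no encorafenib comparison. In NaJa-D day 1 its log2 fold change was -0.03, or -0.20 without drug replicate 3. In NaJa-F day 5 it was -0.04, or 0.08 and -0.19 without drug replicates 1 and 2. The values nearest to the threshold were both in NaJa-G: 113, 100 and 111 CPM with drug at day 1 (log2 fold change 0.29, adjusted p = 0.0122) and 76.2, 77 and 75.4 at day 5 (0.31, adjusted p = 0.021). With the GC trend removed both passed, at 0.28 (adjusted p = 0.00821) and 0.37 (adjusted p = 0.00254). The drug libraries of day 5 lay above both DMSO libraries, where 73.1% of all genes did not overlap. The difference was 0.07 without DMSO day 5 replicate 1 and 0.54 without replicate 3, so a single control library sets its size.

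The balance of Hras to Nras within a library needs no scaling between libraries. It can still follow the GC trend of a library, as the longest transcript has 55.2% GC in Hras and 42.6% in Nras. The log2 ratio of their counts ran from -0.83 to -0.44 in the 6 DMSO libraries of NaJa-D, from -1.72 to -1.30 in the 6 of NaJa-F, and from -1.85 to -0.86 in the 5 of NaJa-G. NaJa-D did not overlap with either of the others. Averaged over days, the ratio was 0.561 times that of NaJa-D in NaJa-F (log2 -0.83) and 0.644 times in NaJa-G (-0.63), each with p = 0.005 and an adjusted p of 0.03 in the exact two-sided permutation test within days (n = 5 or 6 libraries a line). This p is the smallest that these permutations allow. No ratio test passed when any 1 of the 5 DMSO libraries of NaJa-G was left out. The test of NaJa-F against NaJa-D uses none of these libraries and lost its call through the adjustment alone. For NaJa-G against NaJa-D fewer permutations were possible in those fits, which raises the smallest p they allow. These lost calls therefore do not tell how far the ratio differences rest on single libraries. NaJa-G and NaJa-F differed by 0.20 (exact permutation p = 0.11). Encorafenib moved the ratio by -0.09 in NaJa-D, -0.10 in NaJa-F and less than 0.01 in NaJa-G, with no test passed.

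Araf (ENSMUSG00000001127, chromosome X, 20797814 to 20860519, GRCm38, plus strand) encodes the RAF kinase with the weakest activity of its own. In NaJa-D its DMSO level was 74.6, 86.2 and 84.4 CPM at day 1 and 102, 107 and 97.6 at day 5, and with drug 109, 112 and 84.1 CPM at day 1, then 103, 99.9 and 113. In NaJa-F it stayed between 74.4 and 89 CPM in all 11 libraries of both treatments and days. In NaJa-G it had 91.2, 107 and 108 CPM in DMSO day 1, 108 and 110 in DMSO day 5, 115, 130 and 115 with drug at day 1, and 123, 127 and 124 at day 5. All NaJa-G libraries lay above all of NaJa-F.

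Araf rose in NaJa-D, both with drug at day 1 (1.24-fold, log2 0.31, 0.13 to 0.48, adjusted p = 0.00286) and over time in DMSO (1.25-fold, 0.32, adjusted p = 0.00288). The call over time was lost without DMSO day 1 replicate 1 (0.25, adjusted p = 0.0381) or DMSO day 5 replicate 2 (0.29). In the drug group, replicates 1 and 2 were above all DMSO libraries of the day and replicate 3 was among them. Without replicate 3 the log2 fold change was 0.41 (adjusted p = 4.78e-05), and of the 6 fits without 1 library 3 lost the call. In NaJa-G it was 0.23 at day 1 (adjusted p = 0.015) and 0.19 at day 5 (adjusted p = 0.0779), with no overlap between the groups on either day, where 73.5% and 73.1% of all genes did not overlap. In NaJa-F it was -0.07 and -0.04 (adjusted p = 0.496 and 0.794). The difference of the day 1 responses between NaJa-F and NaJa-D was -0.38 (adjusted p = 0.0223) and did not pass. Between lines in DMSO, NaJa-G exceeded NaJa-F by 0.34 (adjusted p = 2.94e-05) and NaJa-D by 0.21 (adjusted p = 0.00403), the latter at 0.32 on day 1 and 0.10 on day 5 (adjusted p = 0.372) and lost in 5 of 11 fits without a library.

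Braf (ENSMUSG00000002413, chromosome 6, 39603237 to 39725463, GRCm38, minus strand) is the drug's target and holds the engineered allele. Its level passed in none of the 6 encorafenib comparisons. In NaJa-D it was 38.3, 36.4 and 39 CPM in DMSO day 1 against 51.4, 46.9 and 39.7 with drug (log2 fold change 0.28, 0.06 to 0.49, adjusted p = 0.0271), and 47.4, 35.7 and 42.8 against 41.9, 38.1 and 38 at day 5 (-0.09, adjusted p = 0.483). In NaJa-F it was 37, 35.7 and 38.8 against 36.1, 33.4 and 39.1 CPM at day 1 (-0.04) and 45.3, 45.4 and 45 against 52.5 and 45.2 at day 5 (0.11, or -0.01 and 0.20 without drug replicates 1 and 2). In NaJa-G it was 37.9, 42.3 and 42.6 against 46.4, 50.2 and 43.1 CPM at day 1 (0.19, adjusted p = 0.0885), and 62.2 and 45.4 against 67.2, 63.3 and 66.4 at day 5 (0.31, 0.09 to 0.53, adjusted p = 0.0153). The drug groups lay above DMSO without overlap in NaJa-D day 1 (54.9% of all genes did not overlap) and on both days of NaJa-G (73.5% and 73.1%).

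These Braf values depended on single libraries and on GC content. In NaJa-D day 1 the log2 fold change was 0.35 without encorafenib replicate 3 (adjusted p = 0.00607). In NaJa-G day 5 it was 0.53 without DMSO replicate 1 (adjusted p = 0.000547) and 0.07 without replicate 3 (adjusted p = 0.626). With the GC trend removed, Braf passed in NaJa-D day 1 (0.26, adjusted p = 0.00964), NaJa-G day 1 (0.23, adjusted p = 0.00978) and NaJa-G day 5 (0.31, adjusted p = 0.0029). Over time in DMSO, Braf rose 1.3-fold in NaJa-G (0.38, 0.15 to 0.60, adjusted p = 0.00628), which became 0.15 (adjusted p = 0.359) when DMSO day 5 replicate 1 was left out and 0.61 without replicate 3. Without DMSO day 1 replicate 1 it was 0.32 and did not pass. In the other lines it was 0.28 (NaJa-F, adjusted p = 0.0348) and 0.14 (NaJa-D, adjusted p = 0.288). No difference between lines passed, but that between NaJa-G and NaJa-D (0.22, adjusted p = 0.0101) lay at the threshold and passed with edgeR, DESeq2 and limma-trend. It was 0.11 (adjusted p = 0.184) when NaJa-G DMSO day 5 replicate 1 was left out and 0.34 (adjusted p = 0.000258) when replicate 3 was. It also passed without NaJa-D DMSO day 1 replicate 3, the library with conflicting labels (0.24, adjusted p = 0.00811), and in 4 of 11 fits without 1 library in all. The exons of Braf share 146 bases, 1.05% of their length, with Ndufb2 on the other strand, those of Araf 9 bases with Syn1, and the counting is not stated to use strand.

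The count ratio of Araf to Braf passed in none of its 6 exact permutation tests. The widest difference was -0.17 on the log2 scale between NaJa-F and NaJa-D (p = 0.095, exact permutation), and drug moved it by -0.03 in NaJa-G, -0.09 in NaJa-F and 0.08 in NaJa-D.

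**Figure D4:**
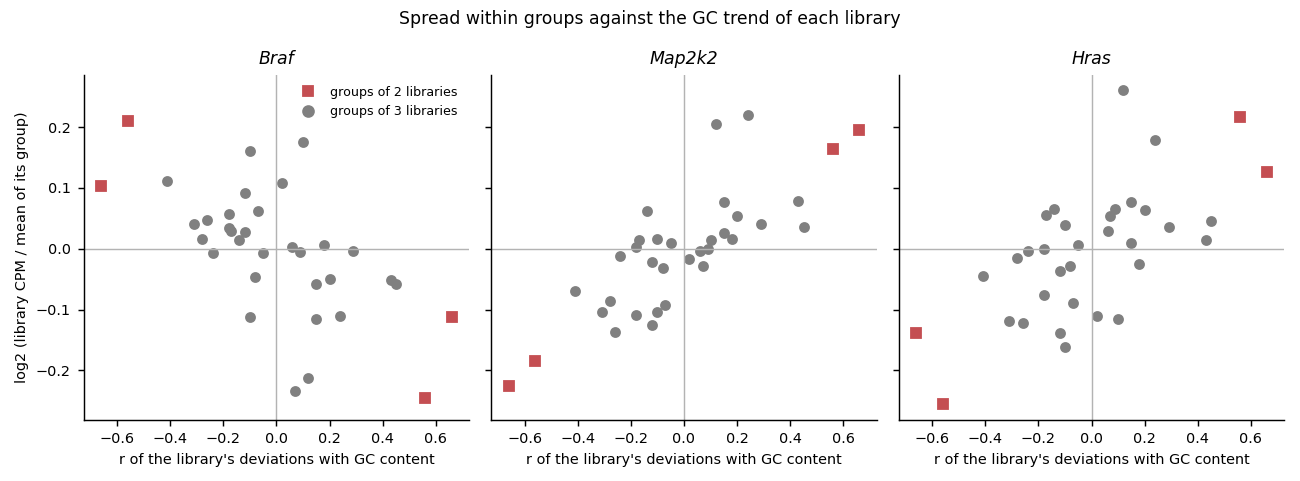
For Braf (42.6% GC), Map2k2 (60.4%) and Hras (55.2%), the log2 ratio of each library's level to its group mean (y) against the correlation of that library's deviations over 10256 genes with GC content (x), 1 point per library. The 4 libraries of the groups with 2 libraries (squares) lie at both ends of the x axis, and the 2 on the right held more Map2k2 and Hras and less Braf than their group means.

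Map2k1 (ENSMUSG00000004936, chromosome 9, 64185770 to 64253631, GRCm38, minus strand) and Map2k2 (ENSMUSG00000035027, chromosome 10, 81105915 to 81133975, GRCm38, plus strand) encode MEK1 and MEK2, the kinases that RAF switches on and that phosphorylate ERK. Map2k1 was the steadiest of the 7 genes, between 86.8 and 134 CPM in all libraries. Its fitted effect of encorafenib was below 0 in 6 of 6 comparisons, from -0.15 to -0.03, and passed in none. In NaJa-D day 1 it had 110, 102 and 95.9 CPM in DMSO against 88.4, 86.8 and 103 with drug (-0.15, adjusted p = 0.0267). It passed without drug replicate 3 (-0.26, adjusted p = 0.000211) and without DMSO replicate 3, the library with conflicting labels (-0.23, adjusted p = 0.00584). In NaJa-F it had 132, 133 and 125 against 117, 114 and 120 CPM at day 1 (-0.15, adjusted p = 0.0343), with no overlap, where 59.1% of all genes did not overlap. In NaJa-G day 5 it had 104 and 104 against 95, 93 and 91.8 CPM (-0.15, adjusted p = 0.0361), again with no overlap (73.1% of all genes).

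In DMSO, Map2k1 was lower in NaJa-D than in NaJa-F (NaJa-F minus NaJa-D 0.24, adjusted p = 7.2e-06) and NaJa-G (0.14, adjusted p = 0.00408). The call against NaJa-G was lost in 5 of 11 fits without 1 library, among them those without NaJa-D DMSO day 1 replicate 3 (adjusted p = 0.0184) and without NaJa-G DMSO day 5 replicate 1 (0.0113) or 3 (0.0127). Both differences belonged to day 1 more than to day 5, with 0.34 and 0.26 at day 1 against 0.13 (adjusted p = 0.0461) and 0.02 (adjusted p = 0.757) at day 5. Over time it fell in NaJa-F (log2 -0.22, adjusted p = 0.00534) and NaJa-G (log2 -0.24, adjusted p = 0.0027), with -0.01 in NaJa-D. Calls over time were lost in 4 of 6 and 3 of 5 fits without a library. In NaJa-D, scaling by library size alone moved all genes by a median of 0.18 and turned the value of Map2k1 to 0.17.

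Map2k2 had lower levels at day 5 than at day 1 in DMSO. It went from 190, 199 and 177 CPM at day 1 to 154, 156 and 153 at day 5 in NaJa-F (-0.29, adjusted p = 0.027), from 196, 153 and 156 to 110 and 140 in NaJa-G, and from 166, 163 and 148 to 139, 135 and 139 in NaJa-D (-0.21, adjusted p = 0.0838). Day 5 lay below day 1 without overlap in all 3 lines, where 55.5% (NaJa-G), 51.3% (NaJa-F) and 51% (NaJa-D) of all genes did not overlap. The fall passed in NaJa-G (log2 -0.43, adjusted p = 0.00194) but not when DMSO day 5 replicate 1 was left out (-0.25, adjusted p = 0.136) or when DMSO day 1 replicate 1 was (-0.32). With drug Map2k2 passed in no comparison, with values from -0.11 to 0.13, which single libraries moved. In NaJa-D day 1 it was -0.25 without drug replicate 3. In NaJa-F day 5 it was 0.10 and -0.33 without drug replicates 1 and 2. In NaJa-G day 5 it was -0.10 and 0.26 without DMSO replicates 1 and 3. Between lines NaJa-G had less than NaJa-F (-0.24, adjusted p = 0.00542), a call lost in 8 of 11 fits without a library, with -0.15 (adjusted p = 0.0974) when NaJa-G DMSO day 5 replicate 1 was left out. With the GC trend removed, Map2k2 also passed in NaJa-D with drug at day 1 (-0.20, adjusted p = 0.0088) and over time (-0.29, adjusted p = 0.000696), and between NaJa-F and NaJa-D (0.30, adjusted p = 1.41e-06).

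The Map2k2 to Map2k1 count ratio was higher with encorafenib in NaJa-G, by an amount that depended on single control libraries. The log2 ratio ran from 0.44 to 0.58 in the 6 drug libraries and from 0.09 to 0.54 in the 5 DMSO libraries, a difference of 0.18 averaged over days (exact permutation p = 0.005, adjusted p = 0.03, the smallest possible). The difference was 0.09 without DMSO day 5 replicate 1, whose deviations had the correlation of -0.56 with GC content given above, and 0.27 without replicate 3. None of the 11 fits without 1 NaJa-G library kept the call. Fewer permutations were possible in those fits, which raises the smallest p they allow. Their lost calls therefore do not tell how far the result rests on single libraries. In NaJa-D it was 0.11 (exact permutation p = 0.02, adjusted p = 0.09) and in NaJa-F 0.06 (p = 0.5, exact permutation). Of the 18 ratio tests 3 passed, and none did without any 1 of the 5 DMSO libraries of NaJa-G. Fewer permutations were possible there for tests with NaJa-G, and the test of NaJa-F against NaJa-D lost its call through the adjustment alone.

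Map2k1, Map2k2 and Hras all fell over time in NaJa-G. Braf rose there. The fibroblast marker sum also fell over time in that line, as given above, and its part was not tested. Over the 34 libraries, Pearson r of log2 CPM was 0.77 between Map2k2 and Map2k1, 0.76 between Map2k2 and Hras, 0.43 between Map2k1 and Hras, and -0.69 between Map2k2 and Braf. These correlations describe libraries that share lines and days and, as shown above, a GC trend. The promoters of these 4 genes are given because they are the 4 that passed over time in NaJa-G. Each line holds the 250 bases before the transcription start, 5′ to 3′, from RefSeq (GRCm38.p6), with a promoter found there for 6 of the 7 genes. Capitals mark matches on either strand to CCGGAA (the core bound by ETS factors, which ERK can activate), GGGCGG (a GC box), TGACGT (the core of a cyclic AMP response element, CRE) and TGACTCA (an AP-1 site).
Map2k1, chr9:64253606-64253855, minus strand: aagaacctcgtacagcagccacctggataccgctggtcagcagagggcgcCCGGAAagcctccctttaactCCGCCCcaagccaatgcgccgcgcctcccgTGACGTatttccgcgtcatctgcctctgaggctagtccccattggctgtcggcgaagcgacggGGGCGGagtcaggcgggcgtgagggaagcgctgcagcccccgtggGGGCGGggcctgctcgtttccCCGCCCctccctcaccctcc
Map2k2, chr10:81105665-81105914, plus strand: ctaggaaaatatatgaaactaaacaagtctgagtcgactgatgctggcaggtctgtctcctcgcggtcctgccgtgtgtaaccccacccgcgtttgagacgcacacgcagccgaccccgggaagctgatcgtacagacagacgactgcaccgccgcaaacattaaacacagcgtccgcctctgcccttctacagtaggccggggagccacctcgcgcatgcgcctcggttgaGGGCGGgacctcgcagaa
Hras, chr7:141194005-141194254, minus strand: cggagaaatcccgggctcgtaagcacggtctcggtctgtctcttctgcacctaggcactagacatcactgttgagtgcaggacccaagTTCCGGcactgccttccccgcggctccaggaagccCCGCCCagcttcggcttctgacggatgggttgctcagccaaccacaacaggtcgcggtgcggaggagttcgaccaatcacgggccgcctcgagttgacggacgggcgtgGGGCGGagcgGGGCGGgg
Braf, chr6:39725464-39725713, minus strand: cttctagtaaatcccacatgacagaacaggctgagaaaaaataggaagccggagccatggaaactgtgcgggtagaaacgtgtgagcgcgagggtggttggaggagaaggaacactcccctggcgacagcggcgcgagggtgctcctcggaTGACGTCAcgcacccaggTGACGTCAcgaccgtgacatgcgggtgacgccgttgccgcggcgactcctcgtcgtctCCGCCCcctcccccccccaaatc

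The GC box was found in all 4 windows, with 4 matches in Map2k1, 3 in Hras and 1 each in Map2k2 and Braf, and in 32.7% of the 32851 promoter windows of this length in the table. The ETS core was found once each in Map2k1 and Hras, and in 12% of all windows. The CRE core lay once in Map2k1, and is in 6.47% of all windows, and 4 matches in Braf formed 2 copies of the palindrome TGACGTCA, which 1.55% of all windows hold. No window of the 6 genes held the AP-1 letters, which are in 4.46% of all windows. A match describes letters only.

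Mapk3 (ENSMUSG00000063065, chromosome 7, 126759601 to 126765819, GRCm38, plus strand) encodes ERK1, the last kinase of the chain. In NaJa-F and NaJa-G its response to encorafenib was lower at day 5 than at day 1. In NaJa-G day 1 it rose 1.32-fold, from 242, 199 and 209 CPM in DMSO to 291, 279 and 287 with drug (log2 0.40, 0.23 to 0.57, adjusted p = 7.65e-05), with no overlap (73.5% of all genes did not overlap) and in every fit without a library. At day 5 it had 216 and 286 CPM in DMSO and 237, 226 and 222 with drug (-0.12, adjusted p = 0.245), the drug libraries lying between the controls. Without DMSO day 5 replicate 1 that value was -0.33 (adjusted p = 0.00569), and without replicate 3 it was 0.07. In NaJa-F it had 181, 185 and 165 against 212, 209 and 197 CPM at day 1 (0.22, adjusted p = 0.0314) and 192, 193 and 187 against 155 and 161 at day 5 (-0.28, -0.46 to -0.09, adjusted p = 0.0203, or -0.26 and -0.32 without drug replicates 1 and 2), without overlap on either day (59.1% and 55.3% of all genes did not overlap) but in opposite directions. In NaJa-D it had 148, 143 and 132 against 144, 146 and 167 CPM at day 1 (0.11, adjusted p = 0.22, or 0.01 without drug replicate 3) and 164, 188 and 191 against 197, 185 and 198 at day 5 (0.10, adjusted p = 0.319).

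The day 5 response of Mapk3 was below that of day 1 by 0.52 in NaJa-G (log2 -0.52, -0.77 to -0.27, adjusted p = 0.000971) and by 0.49 in NaJa-F (log2 -0.49, -0.74 to -0.25, adjusted p = 0.00616). These were the only 2 of 21 such tests of the 7 genes that passed, where 15% of all gene tests did (31.7% of genes in NaJa-G, 5.88% in NaJa-F and 7.29% in NaJa-D, where 0 of 7 passed). In NaJa-F, 7 of 11 fits without a library lost the call, with values from -0.53 to -0.45. In NaJa-G leaving out DMSO day 5 replicate 3 gave -0.32 (adjusted p = 0.0311), and leaving out replicate 1 gave -0.73 (adjusted p = 2.06e-05). Among the 21 tests, 4 passed without NaJa-D encorafenib day 1 replicate 3, and 1 in each fit that lost a Mapk3 call and without NaJa-D DMSO day 1 replicate 3.

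**Figure D5:**
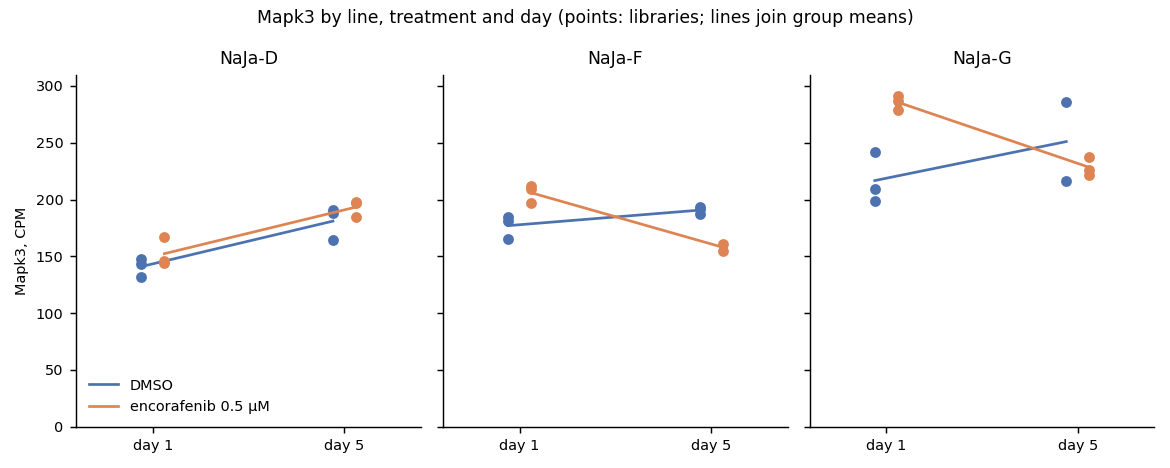
Mapk3 in CPM (axis from 0) at day 1 and day 5 in each line, 1 point per library, lines joining group means, DMSO in blue and encorafenib in orange. The drug means lie above DMSO at day 1 in NaJa-F (206 against 177 CPM) and NaJa-G (285 against 217) and are below it at day 5 (158 against 191 and 228 against 251), while in NaJa-D they keep close together.

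In DMSO the order of Mapk3 over lines was NaJa-G, NaJa-F, NaJa-D. NaJa-G exceeded NaJa-D by 0.54 (adjusted p = 3.77e-09) and NaJa-F by 0.33 (adjusted p = 2.1e-05), both in every fit without a library, and NaJa-F exceeded NaJa-D by 0.21 (adjusted p = 0.00182), which was 0.33 on day 1 and 0.08 (adjusted p = 0.39) on day 5. Over time Mapk3 rose 1.28-fold in NaJa-D (0.36, adjusted p = 0.000541), with 0.11 (adjusted p = 0.328) in NaJa-F and 0.20 (adjusted p = 0.0735) in NaJa-G. The NaJa-G value was 0.41 (adjusted p = 0.00209) when DMSO day 5 replicate 1 was left out and less than 0.01 when replicate 3 was. Without NaJa-D DMSO day 1 replicate 3, the library with conflicting labels, the rise over time (0.30, adjusted p = 0.0125) and the difference between NaJa-F and NaJa-D (0.17, adjusted p = 0.0208) no longer passed.

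In the order of group means, most neighbours could not be told apart by their libraries. Of 11 neighbouring pairs per gene, the ranges overlapped in 7 for Nras and Map2k1, 9 for Hras and Araf, 10 for Braf and Mapk3, and 11 for Map2k2. The highest group exceeded the lowest 1.94-fold for Nras and 2.03-fold for Mapk3, the latter between NaJa-G encorafenib day 1 and NaJa-D DMSO day 1.

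Other genes of the pathway are given from lists, with the comparisons in the order NaJa-D day 1 and 5, NaJa-F day 1 and 5, NaJa-G day 1 and 5. Of all genes, 23.7%, 18.3%, 17.5%, 9.7%, 35.3% and 28.5% were higher with drug in that order, and 21.2%, 14.7%, 12%, 8.5%, 28.7% and 24.7% lower. The ERK output list (12 transcripts that rise with ERK activity, such as the phosphatase Dusp6 and the feedback inhibitor Spry4) had 10, 7, 10, 7, 11 and 12 genes lower with drug. Its median log2 fold changes were -0.70, -0.40, -0.80, -0.37, -1.54 and -1.03, against -0.02 to 0.04 over all genes. Higher with drug were Phlda1 in NaJa-D day 1, Egr1 in NaJa-D day 5, and Dusp4 and Egr1 in NaJa-F day 5. Spry4 fell by 3.64 on the log2 scale in NaJa-G day 1 (log2 -3.64) and 0.91 in NaJa-F day 5 (log2 -0.91), the extremes of its 6 falls.

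Among 6 further RAS, RAF and ERK family genes, 3, 3, 4, 1, 4 and 4 were higher with drug in the same order, and 1 was lower in NaJa-F day 5. The RAS relatives Mras and Rras accounted for most of these. Mras, which joins a phosphatase complex that readies RAF for activation, rose in 6 of 6 comparisons, by log2 0.89, 0.64, 1.33, 0.80, 2.01 and 1.10, where 5.08% of all genes rose in all 6. Rras rose in 5, by 0.90, 0.77, 0.81, 1.71 and 1.03, with 0.24 (adjusted p = 0.0788) in NaJa-F day 5. Rras2 rose in NaJa-F day 1 (0.28) and NaJa-G (0.72 and 0.67). Their levels stayed at 31.7 to 203 CPM for Mras and 13.9 to 68.4 for Rras over the libraries.

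Of 8 measured genes that switch RAS on (adaptors, exchange factors, a phosphatase and the receptor Egfr, of 10 listed), 1, 2, 4, 3, 6 and 4 were higher, and Shc1 was lower in NaJa-F day 5 and NaJa-G day 5. Gab1, a docking adaptor, rose in all 6 comparisons (1.39, 1.21, 0.87, 0.96, 2.20 and 2.25). Egfr rose in NaJa-F (0.30 and 0.53) and NaJa-G (0.59 and 0.88), with 0.11 and 0.07 in NaJa-D, neither passing. Of 7 measured GTPase activating proteins, which switch RAS off (8 listed), 1, 4, 1, 1, 3 and 2 were lower and 1, 0, 0, 0, 1 and 2 higher. Rasa1 fell in NaJa-D (log2 -0.21 on both days) and NaJa-G (log2 -0.58 and -0.47).

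Of 16 scaffolds and regulators of RAF and MEK, 3, 6, 5, 0, 9 and 9 were higher and 4, 0, 0, 2, 3 and 3 lower. Lamtor3, a scaffold that holds MEK and ERK1 at late endosomes, rose in 5 of 6 comparisons (0.28, 0.24, 0.23, 0.98 and 0.45), as did Pebp1, which binds RAF and keeps it from MEK (0.41, 0.54, 0.42, 0.83 and 0.45); in NaJa-F day 5 they had 0.18 and 0.01. Hsp90ab1, a chaperone on which RAF kinases depend, fell in NaJa-D day 1 (log2 -0.45), NaJa-F day 5 (log2 -0.32) and NaJa-G (log2 -0.69 and -0.72). Of 7 genes that process RAS and carry it to membranes, 2, 2, 2, 0, 4 and 1 were higher and 2, 0, 0, 0, 2 and 0 lower, and Zdhhc9, part of the enzyme that attaches palmitate to Hras and Nras, rose in all but NaJa-F day 5 (0.29, 0.22, 0.31, 0.88 and 0.51).

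Of 10 ERK substrates and kinases that ERK activates, 3, 2, 0, 0, 4 and 0 were higher and 2, 3, 2, 3, 2 and 3 lower. Of 13 genes of other MAP kinase cascades, 6, 1, 0, 1, 2 and 3 were higher and 3, 1, 4, 2, 4 and 2 lower, and Mapk6 fell in all 6 (log2 -0.47, -0.29, -0.33, -0.37, -0.67 and -0.57), where 3.07% of all genes fell in all 6.

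The genes whose log2 CPM most resembled each member over the 34 libraries, by Pearson r, were Commd8 (0.97), Bcl10 (0.969) and Washc5 (0.968) for Nras, and Polr2l (0.944), Rhog (0.889) and Gna11 (0.889) for Hras. For Araf they were Camk2g (0.951), Tmem150a (0.945) and Ranbp10 (0.934), and for Braf Atxn7 (0.899), Mbd5 (0.887) and Zfp318 (0.878). For Map2k1 they were Pgam1 (0.932), Rpsa (0.913) and Mrps23 (0.907), and for Map2k2 Sgta (0.94), Drap1 (0.912) and Ndufs6 (0.911). For Mapk3 they were Anxa7 (0.951), Spg21 (0.941) and Mapkapk2 (0.94). The libraries share lines, treatments and days, so these values describe likeness over 12 groups and not over independent samples.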

How the data were processed

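RNA of NaJa cells was sequenced in 34 libraries. The authors deposited raw counts per gene. Per the labels and the methods, reads were trimmed with Trimmomatic 0.39 and aligned to GRCm38/mm10 with STAR 2.5.2b, and the counter and its use of strand are not given in the sources used here. All 14107 genes were tested. Of their identifiers, 14064 matched GENCODE M21 (GRCm38), which gave symbols, positions, exon lengths and GC content.

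Counts were scaled by TMM (edgeR 4.0.16) and fitted with limma 3.58.1 (voom weights, R 4.3.3), with 1 mean for each of 12 groups, since the study used limma, TMM and an adjusted p below 0.01. The 21 comparisons were Benjamini-Hochberg adjusted over all genes, each on its own. Line comparisons used the mean of both DMSO days. Count ratios (prior count 0.5) were compared by 18 two-sided exact permutation tests within days, at an adjusted p below 0.05. For likeness, log2 CPM used a prior count of 2. Named genes are the 7 members, list genes that a result turns on, and the 3 genes most like each member. Members and lists were chosen with earlier results of these data known.

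Alternatives were edgeR's quasi-likelihood test, DESeq2 1.42.0, limma-trend, other scaling, filters, thresholds and sets of groups, a replicate block, leaving out each library, and a GC correction (lowess of span 0.3 per library, 14064 genes). The fit was tested on simulated data. Fold changes are on the log2 CPM scale, and intervals are 95% intervals of the fit.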

Additional observations from a re-analysis of the deposited data

Results flagged for a closer look

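The tests of differences between responses marked 3 values for a closer look. The day 1 response of Nras to encorafenib in NaJa-G exceeded that of NaJa-D by 0.26 on the log2 scale (adjusted p = 0.00437). The response of Mapk3 at day 5 minus that at day 1 was -0.52 (adjusted p = 0.000971) for NaJa-G and -0.49 (adjusted p = 0.00616) for NaJa-F. In NaJa-D this Mapk3 difference was -0.01 (adjusted p = 0.948), and whether it differs between the lines was not tested.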

How the results depend on the processing

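Most values kept their side of the threshold: of the alternative fold changes 2920 did, 113 lost and 81 gained a call, and 1 passed with its direction reversed. Of the alternative ratios these were 247, 26 and 3. Tests that passed in neither fit count among the 2920, and some of them changed sign. Map2k2 with drug in NaJa-F day 5 did so, at -0.10 in the main fit and -0.33 to 0.10 in fits without 1 library. The reversed value was Map2k1 over time in NaJa-D, at 0.17 with library size only. Requiring a log2 fold change of at least 0.5 left 0 calls with encorafenib, 3 between lines, 1 over time, 0 for response differences between lines and 1 between days. An adjusted p below 0.05 gave 16 with encorafenib and 6 for response differences between lines. Removing the GC trend, added after seeing the data, gave 14 with encorafenib. Between lines 7 passed on DMSO day 5 only and 7 with the replicate block. Response differences between lines came to 2 with DESeq2, 0 with library size only and 0 with only the groups compared, and those between days to 1 with RLE scaling. Of the ratios 6 passed unadjusted and 0 with sign changes within the replicate block. With so few pairs no ratio could pass the latter after adjustment, so that count tells nothing about the ratios. Same-numbered libraries deviated together (r above 0.1) in 7 of 18 pairs in NaJa-D, 8 of 15 in NaJa-F and 6 of 15 in NaJa-G, so the numbers were not taken to pair samples. Leaving out each library gave 5 to 12 calls with encorafenib, 9 to 13 between lines, 5 to 9 over time, 0 to 6 and 1 to 4 for response differences between lines and days, and 0 to 3 ratios. Where no cause is named, the cause was not tested.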
